A study of Homo sapiens with 16 samples.

Results

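The chaperonin CCT (also called TRiC) is built from 8 subunits, encoded by TCP1, CCT2, CCT3, CCT4, CCT5, CCT6A, CCT7 and CCT8. All 8 were found by gene symbol among the 8657 genes compared after depletion of DDX3X and among the 7433 genes compared between DDX3Y and DDX3X. The cells were HCT-116, a human colorectal carcinoma line, in a derivative that is 1 clone: endogenous DDX3X, a DEAD-box RNA helicase that acts in translation initiation, carries a C-terminal mAID degron, and the ubiquitin ligase adaptor OsTIR1 is expressed from a CMV promoter. Ribosome profiling and rRNA-depleted RNA-seq were performed in 4 conditions with 2 replicates each, 16 libraries in all. In the first comparison, cells with a control lentivirus received 500 µM indole-3-acetic acid (IAA, the auxin that triggers degradation of the tagged protein) or DMSO for 48 h. In the second, cells with the same degron carried lentiviral FLAG-tagged DDX3X or DDX3Y cDNA, partially codon-optimized, and all received IAA. The comparisons share no library.

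CCT is a closed chamber of a pair of stacked rings, and each ring holds 1 copy of every subunit in a fixed order. It folds actin, the tubulins and many WD40-repeat proteins, using ATP bound by each subunit. Because no subunit can take another's place, the complex is a case in which equal supply of the members is of interest, and the question here was how evenly the 8 mRNAs and their ribosome occupancy moved when DDX3X was lost or was replaced by its Y-linked paralog.

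The subunits are paralogs, so it matters whether a ribosome footprint of about 28 nt can be told apart between them. The stretches that follow show a conserved place, the codons of the Gly-Asp-Gly-Thr motif of the ATP-binding pocket, which was found once in each coding sequence. They are coding sequence of the canonical GENCODE v44 transcripts (hg38), 5′ to 3′ on the coding strand, with the motif's 4 codons in capitals.
TCP1: aaagaagttGGAGATGGAACTacttcagtg
CCT2: gatgaagttGGTGATGGCACTacctctgtt
CCT3: gaagaggttGGAGATGGGACCacatcagta
CCT4: atagaagcaGGAGATGGCACCacatcagta
CCT5: gatgaaattGGAGATGGAACCacaggagtg
CCT6A: gatataactGGTGATGGTACGacttctaat
CCT7: gctgaggtgGGTGATGGCACCacctcagtg
CCT8: caagaagttGGAGATGGCACAaactttgtt
Even here every pair of subunits differed at 6 to 15 of the 30 positions, and at 1 to 3 of the 12 bases of the motif. Over the whole coding sequences, the longest stretch of identical bases that any of the 28 pairs shares was 17 nt, between TCP1 and CCT4, so no footprint-sized window is common to 2 subunits. The printed stretches lie within coding exons at chr6:159787743-159787772 (exon 3, minus strand) for TCP1, chr12:69587950-69587979 (exon 5, plus strand) for CCT2, chr1:156333557-156333586 (exon 5, minus strand) for CCT3, chr2:61880338-61880367 (exon 4, minus strand) for CCT4, chr5:10254805-10254834 (exon 3, plus strand) for CCT5, chr7:56054423-56054452 (exon 3, plus strand) for CCT6A and chr21:29067625-29067654 (exon 4, minus strand) for CCT8. That of CCT7 crosses the junction of exons 3 and 4, at chr2:73240538-73243027 (plus strand).

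All values below come from the authors' deposited tables. For each gene they give a base mean, log2 fold changes for RNA, for footprints and for translation efficiency (TE, the footprint change relative to the RNA change), and adjusted p-values. The base mean was taken to be the mean of DESeq2-normalized counts over all libraries of 1 assay in a comparison, which the labels do not state. The condition means and ± values rest on that. No value of a separate library is in the tables, so the spread between replicates could not be measured for any gene. The ± values given here are the standard errors that Poisson counting alone implies for 2 libraries per condition. They are a lower limit of the true error. A TE or footprint change was called at an adjusted p under 0.05 and an RNA change at an adjusted p under 0.01. Footprint base means of the subunits lay between 144 and 644 in the IAA table, against a median of 34.1 for all genes, so these are well-measured genes for this series. The epithelial markers EPCAM, CDH1, KRT8, KRT18 and KRT19 were measured in both tables, VIL1 was in neither, and PTPRC and PECAM1, markers of leukocytes and endothelium, were in neither. Among the epithelial markers KRT18 was called after IAA (TE 0.37, RNA -0.26) and KRT19 with DDX3Y (RNA 0.27). COL1A1, a fibroblast gene, was in the IAA table only, at a footprint base mean of 10.6. DDX3Y RNA was higher by 10.33 on the log2 scale in the DDX3Y cells. The RNA change of DDX3X in the same cells was -0.63 (adjusted p = 1.21e-18, the authors' DESeq2 test), called lower. The RNA estimate of DDX3X was 0.01 after IAA (not called), while its footprints (0.45, adjusted p = 0.00788) and TE (0.44, adjusted p = 0.000925) were called higher; these values do not check the depletion, since IAA acts on the protein.

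After IAA, TE was higher than in DMSO in all 8 subunits by point estimate, and 6 of the 8 passed the test. CCT8 moved most. Its implied mean footprint count was 204 in DMSO and 280 in IAA, while its RNA count fell from 4779 to 3923. The TE log2 fold change of CCT8 was 0.74 ± 0.10 (adjusted p = 1.76e-05, the authors' DESeq2 test), a 1.67-fold increase, and its RNA fell by 0.28 (adjusted p = 0.00168), the only called RNA change among the subunits. CCT2 followed with a TE change of 0.58 ± 0.08 (adjusted p = 0.000151), from footprint counts of 299 and 390 in DMSO and IAA and RNA counts of 5097 and 4482. CCT4 had footprint counts of 266 and 343 and a TE change of 0.47 ± 0.09 (adjusted p = 0.0102). In each of these genes a higher footprint estimate and a lower RNA estimate both entered the TE change.

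The middle of the list was close together. CCT5 rose in TE by 0.37 ± 0.09 (adjusted p = 0.0187), and most of that came from RNA, which was lower by 0.22 (adjusted p = 0.0203, not called), since its footprint counts were 271 in DMSO and 302 in IAA. CCT6A rose by 0.35 ± 0.09 (adjusted p = 0.0340), with footprint counts of 234 and 277. CCT3, the most abundant subunit mRNA, rose by 0.32 ± 0.06 (adjusted p = 0.0139), with footprint counts of 589 and 699 and RNA counts of 12758 and 12186. TCP1, from which the name TRiC (TCP1 ring complex) comes, had a TE change of 0.40 ± 0.12 that did not pass the test (adjusted p = 0.0999); it had the fewest footprints, 129 in DMSO and 159 in IAA, and so the widest error of the 8. The TCP1 estimate was larger than those of CCT3, CCT5 and CCT6A, which passed with more footprints.

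CCT7 had the smallest change. Its footprint counts were 413 in DMSO and 431 in IAA, its RNA counts 5709 and 5718, and its TE change was 0.06 ± 0.07 (adjusted p = 0.818). With the second highest footprint count of the subunits, it was measured more precisely than all but CCT3. In the order of TE changes, the gap between CCT7 and the next subunit, CCT3, was 0.26 ± 0.09. The gap between CCT2 and CCT8 at the other end was 0.16 ± 0.13, and each of the other gaps between neighbours was smaller than its counting error. From end to end of that run, CCT2 was 0.26 ± 0.10 above CCT3, as large a step as that from CCT7 to CCT3. In the accepted arrangement of the ring CCT8 and CCT7, the highest and the lowest, sit side by side.

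**Figure D1:**
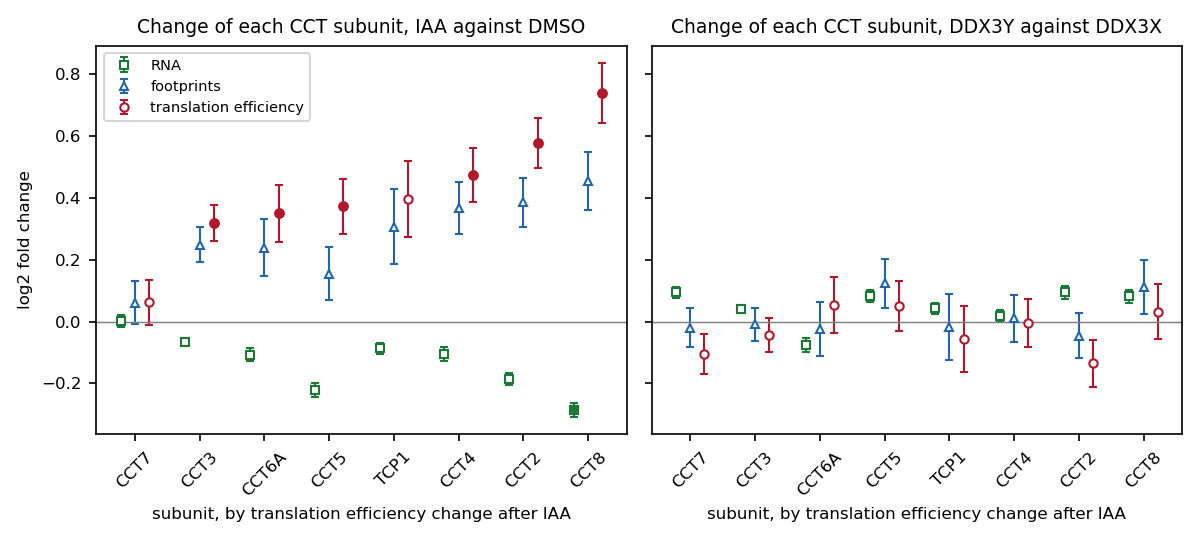
Log2 fold change (y axis) of RNA, footprints and TE for each CCT subunit (x axis, ordered by TE change after IAA), for IAA against DMSO on the left and DDX3Y against DDX3X on the right. Bars are ± 1 counting standard error, filled symbols passed the test, and TE runs from 0.06 in CCT7 to 0.74 in CCT8 on the left but stays between -0.14 and 0.05 on the right.

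Over the 8 subunits the median TE change after IAA was 0.38, or 1.31-fold, beside a median of 0.01 over all 8657 genes and of 0.12 over the 715 genes whose footprint base means lay in the subunits' range. Of all genes, 8.18% were called higher and 10.7% lower in TE. Among those 715 genes 20.6% were called higher. The TE changes of the subunits lay between the 53.4 and the 92.2 percentile of all genes. No subunit was called for footprints alone, where 1.02% of all genes were called higher and 1.11% lower; the footprint changes ran from 0.06 in CCT7 to 0.45 in CCT8, all above 0, with a median of 0.28. For RNA, 7 of 8 changes were below 0, from -0.28 in CCT8 to 0.00 in CCT7, with a median of -0.11. The 1 subunit called lower in RNA compares with 6.75% of all genes and 18.0% of the 715 genes called lower, and 15.2% of all genes were called higher. Unadjusted p-values are not in the tables, so counts at an unadjusted threshold could not be given.

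How even this movement was can be read from the spread over subunits. The SD of the 8 TE changes was 0.20, while counting error alone would give 0.09. A robust spread, the scaled median absolute deviation, was 0.11 for TE, closer to counting, and the SD was 0.15 without CCT7 and 0.16 without CCT8. The SD of RNA was 0.09, where counting gives 0.02, and that of footprints was 0.13, where counting gives 0.09. The TE spread exceeded both of its parts, as the spread of a difference between unrelated quantities also would. RNA and footprint changes also ran in opposite directions across the subunits, which widens the spread of their difference. The lower the RNA estimate, the higher the footprint estimate tended to be (Pearson r = -0.60, Spearman rho = -0.50 over 8 subunits). Over all 8657 genes r was -0.11 and rho -0.13. These values are a description, since each pair comes from the same 8 libraries. Over the 715 genes in the same range of footprint counts the SD of TE changes was 0.43, so the SD of the subunits lay between that of counting alone and that of genes with similar footprint counts. The part of the spread that replicate variation contributes cannot be told from these tables.

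With DDX3Y in place of DDX3X, no subunit was called for RNA, footprints or TE in the authors' DESeq2 test. All 8 adjusted p-values for TE were 0.9997, as no gene of that table was called for TE (0%). TE changes ran from -0.14 ± 0.08 in CCT2 to 0.05 ± 0.09 in CCT6A, with a median of -0.02. CCT8, the subunit that moved most after IAA, had footprint counts of 266 with DDX3X and 287 with DDX3Y and a TE change of 0.03 ± 0.09. CCT7 had footprint counts of 519 and 512 and a TE change of -0.10 ± 0.07. RNA changes ran from -0.07 in CCT6A to 0.09 in CCT7, with 0.323% of all genes called higher. Footprint changes ran from -0.05 in CCT2 to 0.12 in CCT5, with 0.0135% of all genes called higher. That share is 1 gene, DDX3Y itself (9.43, adjusted p = 1.75e-07). The SD over the 8 subunits was 0.07 for TE, 0.06 for RNA and 0.06 for footprints, where counting alone gives 0.08, 0.02 and 0.08. For TE and footprints the spread over the subunits was thus no wider than counting error in this comparison, while that of RNA was wider. A p above the threshold does not show that the 2 proteins act alike on these mRNAs; 1 counting standard error of a TE change here was 0.05 to 0.11.

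Levels were compared between subunits per kb of coding sequence, which is nearly the same length in all of them (1593 to 1668 nt). They were not even. In the DMSO and IAA libraries together CCT3 had 7628 RNA counts per kb, against 2503 in CCT5, the lowest, and 3726 in TCP1. Footprints per kb were highest in CCT3 (394) and CCT7 (259), followed by CCT2 (215), CCT4 (188), CCT5 (176), CCT6A (160) and CCT8 (147), and lowest in TCP1 (86.3). The coefficient of variation over the 8 subunits was 47.2% for RNA and 45.2% for footprints. The 20S proteasome, whose 14 core subunits are also needed in equal numbers, gave 35.8% and 42.6%, and prefoldin, the 6-subunit complex that hands actin and tubulin to CCT, gave 78.7% and 71.4%.

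The levels were about as uneven after IAA as before. The coefficient of variation of footprints per kb was 47.0% in DMSO and 44.2% in IAA, and that of RNA was 45.5% and 49.2%. Summed over the 8 subunits, footprints per kb were 19.8% higher after IAA while RNA per kb differed by -7.62%, both without a test. The share of the summed footprints that fell to CCT7 went from 17.1% to 14.9%, the largest loss, and that of CCT8 went from 8.39% to 9.59%, the largest gain. CCT3 supplied 24.3% and 24.1%. With DDX3Y against DDX3X the sums differed by 0.739% for footprints and 3.44% for RNA, and no subunit's share of footprints moved by more than 0.871 percentage points, the gain of CCT5.

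**Figure D2:**
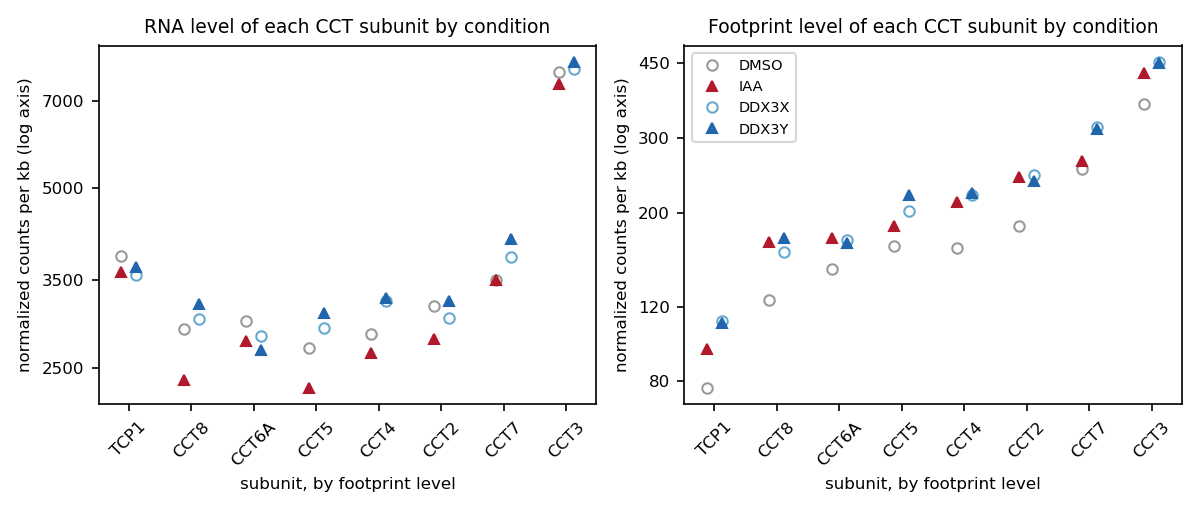
Normalized counts per kb of coding sequence (y axis, log scale) of RNA on the left and footprints on the right for each CCT subunit (x axis, ordered by footprint level) in the 4 conditions. Values are those implied by base mean and fold change, with 1 value per condition and no error bars. The IAA and DMSO libraries were taken to be normalized separately from the DDX3X and DDX3Y libraries. CCT3 is the highest on both sides, and TCP1 is the lowest for footprints (77.2 in DMSO) although its RNA (3838 in DMSO) is above that of 6 subunits.

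TCP1 was the exception in the relation of footprints to RNA. Its log2 ratio of footprint to RNA base mean was -5.43, while the other subunits lay between -4.28 (CCT3) and -3.76 (CCT7). In the DDX3Y and DDX3X libraries TCP1 was at -5.04 and the others between -4.21 and -3.65. TCP1 also had the highest share of coding sequence that is repeated elsewhere in the genome. Of the 28-nt windows of the TCP1 coding sequence, 40.6% occur, letter for letter, somewhere else in hg38, mostly in the pseudogenes TCP1P1 on chromosome 7 and TCP1P3 on chromosome 12. A footprint from such a window can map to more than 1 place. The share was 32.8% in CCT8 (all in the processed pseudogene CCT8P1 on chromosome 1), 28.5% in CCT6A, 22.2% in CCT5, 9.99% in CCT7, 2.01% in CCT4 and 0% in CCT2 and CCT3. In the IAA and DMSO libraries CCT3, with none, had the lowest footprint to RNA ratio after TCP1, followed by CCT8 (-4.17) and CCT6A (-4.17). In the DDX3Y and DDX3X libraries CCT8 was the lowest after TCP1 (-4.21), followed by CCT3 (-4.15). Whether the share bears on these ratios was not tested. For windows of 65 nt, the length of the sequenced RNA reads, the share was at most 4.43%, in CCT8. The 30-nt stretches printed above contain no 28-nt window that occurs elsewhere.

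Counted per 1000 windows that occur nowhere else, the footprint level of TCP1 was 148, still the lowest, and those of the other subunits ran from 196 in CCT4 to 400.5 in CCT3. The coefficient of variation then fell from 45.2% to 31.2%, and in the DDX3Y and DDX3X libraries from 44.8% to 30.7%. CCT8, CCT6A and CCT5 came to 222, 228 and 231, next to CCT2 at 218. How the authors' counting treated reads with several matches in each assay was not tested, nor was its part in the low TCP1 value. The fold changes compare the same windows in both conditions. The TCP1 gene also overlaps the 3′ end of ACAT2 on the opposite strand and hosts small nucleolar RNAs.

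**Figure D3:**
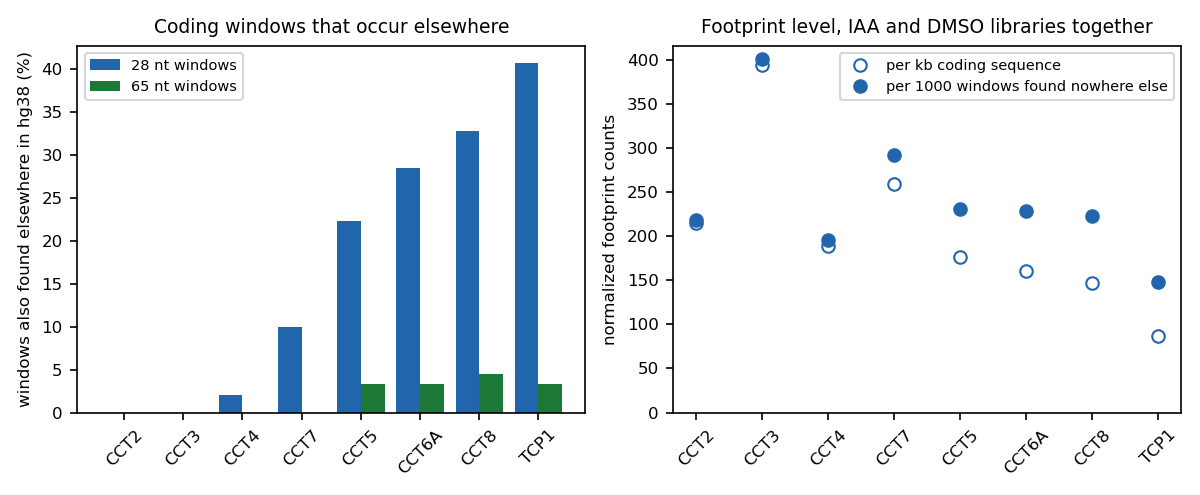
Share of coding-sequence windows that also occur elsewhere in hg38 (left, %, for windows of 28 and 65 nt) and the footprint level of the IAA and DMSO libraries together (right, normalized counts per kb and per 1000 windows found nowhere else) for each CCT subunit. TCP1 has the highest share at 28 nt (40.6%) and the lowest footprint level by either measure (86.3 and 148).

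The subunits differ in base composition, which the choice of genes did not use. The GC content of the coding sequence was 51.5% in CCT7, 50.4% in CCT3, 47.8% in CCT5, 45% in CCT6A, 44.2% in CCT4, 43.4% in CCT2, 42.0% in TCP1 and 41.7% in CCT8. This is close to the reverse of the order of TE changes after IAA: CCT7 had the highest GC content and the smallest change, CCT8 the lowest GC content and the largest. Spearman's rho was -0.90 and Pearson's r -0.82 over the 8 subunits, given as a description. The same direction held across the 8542 genes of the table with a coding sequence (rho = -0.58, r = -0.57), and the subunits lie along it. With DDX3Y against DDX3X rho was -0.02 over the 8 subunits and 0.03 over all genes.

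Set beside the genes within 1 percentage point of its own coding GC content, CCT8 was 0.28 above their median TE change (0.46 over 624 genes), CCT3 was 0.24 above, CCT2 0.21, CCT5 and CCT4 0.16 each, and CCT6A 0.06. CCT7 and TCP1 differed from their neighbours by -0.01 and -0.05. The change of CCT7 was thus close to the median of genes with its coding GC content (0.07 over 585 genes). After subtracting these medians, the SD over the 8 subunits fell from 0.20 to 0.12, beside 0.09 from counting alone.

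The 5′ UTR, the region on which DDX3X is known to act, did not order the subunits in this way. The annotated 5′ UTRs are short, with a median of 77.5 nt, from 58 nt in CCT8 to 149 nt in CCT4, against a median of 123 nt over all genes. Their GC content was 60.7% to 69.0%, where the middle of all genes runs from 61.1% to 75%. CCT8, with the largest TE rise, had the highest 5′ UTR GC content of the 8 in the canonical transcripts (averaged over protein-coding transcripts it was 61.3%, below CCT6A, CCT4 and CCT2), and its TE change was 0.75 above the median of the 618 genes within 1 percentage point of it (-0.01). Over the 8 subunits Spearman's rho of TE change with 5′ UTR GC content was 0.40, opposite in sign to that over 8410 genes (-0.49). These 5′ UTRs span a narrow range, and 8 genes give no precise value.

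**Figure D4:**
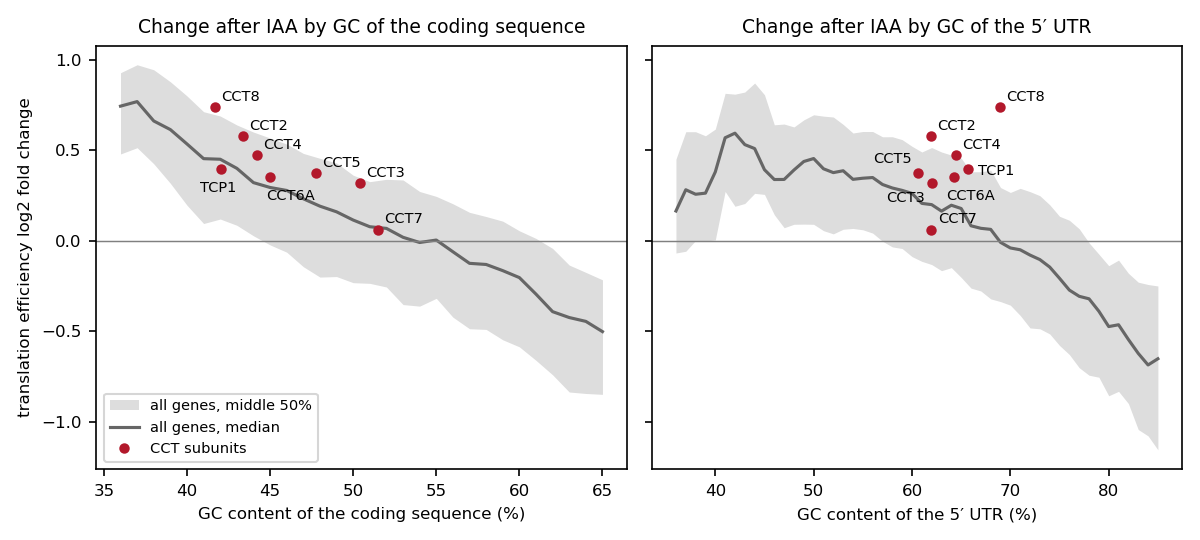
TE log2 fold change after IAA (y axis) against the GC content of the coding sequence (left, %) and of the 5′ UTR (right, %), with the CCT subunits as points, the median of all genes within 1 percentage point as a line and the middle 50% of those genes as a band. On the left the subunits descend with the line from CCT8 (41.7%, 0.74), just above the band, to CCT7 (51.5%, 0.06). On the right CCT8 (69.0%), CCT2 and CCT4 lie above the band, and TCP1 lies at its upper edge.

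The genes that work with CCT moved in several directions after IAA. All 6 prefoldin subunits were measured, with a median TE change of 0.46, beside 0.21 for genes of like coding GC content. PFDN5 was the 1 of 6 that rose in TE (0.65, adjusted p = 0.00177), where 8.18% of all genes were called higher, and none fell. PFDN4 had a larger estimate, 0.96, on a footprint base mean of 20.9, and did not pass (adjusted p = 0.0583). Of the 4 CCT cofactors, 3 were in the table (TXNDC9 was not), and PDCL, PDCL3 and PDCD5 had TE changes of 0.27, -0.06 and -0.10, none called. Their median of -0.06 compares with 0.24 for genes of like coding GC content.

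Of 22 CCT substrates, 21 were measured, with a median TE change of -0.13. Their coding GC content was higher than that of the subunits, with a median of 59.1%. The genes within 1 percentage point of each substrate had a median TE change of -0.16. Taken gene by gene, the median difference of the substrates from such genes was 0.18, beside 0.16 for the CCT subunits. TE fell in 3 of them, namely MLST8, a subunit of the mTOR complexes (-1.43, adjusted p = 0.00420, on a footprint base mean of 18.2), and the G protein beta subunits GNB2 (-0.998, adjusted p = 1.00e-09) and GNB1 (-0.90, adjusted p = 5.52e-11). TE rose in 1, the actin ACTG1 (0.27, adjusted p = 0.00219). The 3 of 21 called lower compare with the 10.7% of all genes given above, and the 1 called higher with 8.18%. RNA was called lower in 6 substrates, the actins ACTB (-0.38) and ACTG1 (-0.40), the tubulins TUBA1A (-0.57) and TUBB (-0.35), and the mitotic regulators PLK1 (-0.45) and CDC20 (-0.33), and higher in 2, GNB2 (0.37) and FZR1 (0.50). Footprints were called lower in ACTB (-0.36, adjusted p = 0.000133) and GNB1 (-0.72, adjusted p = 0.000582). Of all genes, 6.75% were called lower and 15.2% higher in RNA, and 1.11% were called lower in footprints. Among genes with both base means above 100, 15.5% were called lower in RNA. Reads of the near-identical actins and tubulins may be split among their copies.

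Of the 6 tubulin cofactors, which complete the folding of tubulin released from CCT (7 entries, as TBCE has 2 gene IDs), TBCA rose in TE (0.78, adjusted p = 0.0438) and TBCB fell (-0.61, adjusted p = 0.0393). The 7 entries had a median TE change of 0.21, beside -0.15 for genes of like coding GC content. Taken gene by gene, however, the median difference from such genes was -0.09. Among the other chaperonins, 3 of 6 were measured, with a coding GC content of 39.4% to 42.3%. Their median TE change was 0.72, beside 0.45 for genes of like coding GC content. HSPD1, the mitochondrial chaperonin HSP60, rose in TE by 0.81 (adjusted p = 7.25e-08) and in footprints by 0.59 (adjusted p = 0.00119), and its lid HSPE1 rose in TE by 0.72 (adjusted p = 0.0211). BBS10, a chaperonin-like protein, had an estimate of 0.66 that did not pass. CCT6B, MKKS and BBS12 were not in the table. The calls in these 2 lists compare with 8.18% of all genes called higher and 10.7% called lower in TE. For footprints, 1.02% of all genes were called higher.

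The 20S proteasome served as a second obligate complex. Its 14 subunits had a median TE change of 0.46 and an SD of 0.34, where counting alone gives 0.12, so their spread was wider than that of CCT. Their coding GC content also ranged more widely, from 40.1% to 57.5% against 41.7% to 51.5% in CCT. That SD was not corrected for GC content. Genes within 1 percentage point of each proteasome subunit had a median TE change of 0.16. TE rose in 6 of the 14, from PSMB7 (0.52, adjusted p = 0.0118) to PSMA3 (0.84, adjusted p = 0.000555), and fell in none, and 4 were called lower in RNA. Of all genes, 8.18% were called higher in TE and 6.75% lower in RNA. Among genes with both base means above 100, these shares were 20.1% and 15.5%. PSMA7, PSMB6 and PSMB3 had TE changes of -0.33, -0.07 and -0.01, none called. With DDX3Y against DDX3X the SD of TE was 0.10 over the 14 proteasome subunits, where counting gives 0.11. No gene of these lists was called for TE in that comparison. The called RNA changes were higher values of the tubulins TUBA1A (0.55), TUBA1B (0.33) and TUBB (0.30), where 0.323% of all genes were called higher.

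**Figure D5:**
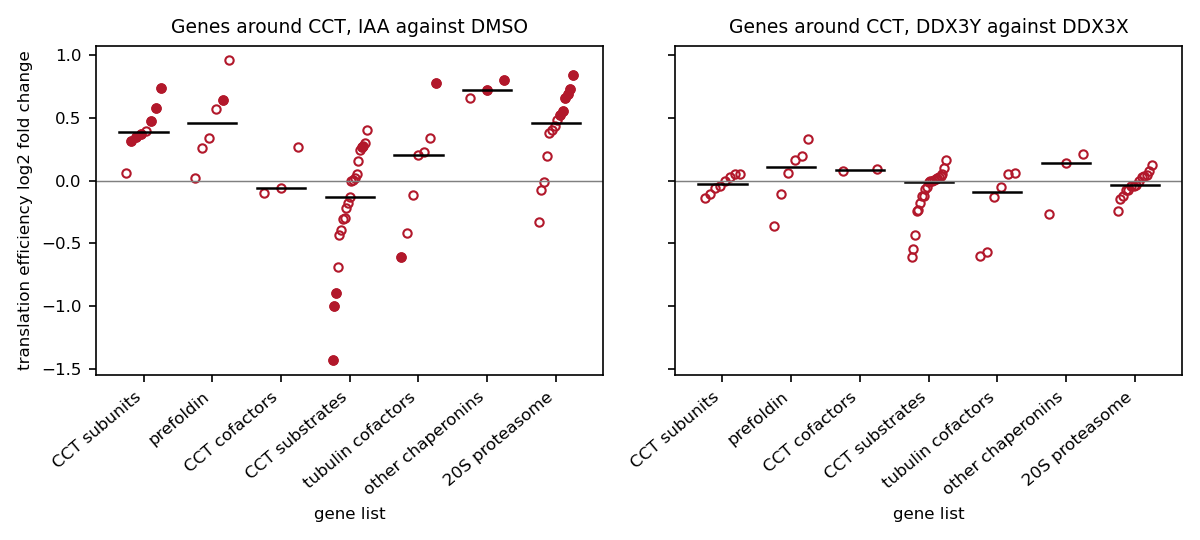
TE log2 fold change (y axis) of every measured gene of CCT and of 6 lists around it (x axis), for IAA against DMSO on the left and DDX3Y against DDX3X on the right, with filled symbols for called genes and a bar at each median. On the left the CCT subunits lie between 0.06 and 0.74 and the proteasome subunits between -0.33 and 0.84, and on the right no gene is called.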

How the data were processed

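Ribosome profiling and RNA-seq libraries of 4 conditions, 2 replicates each, were grouped by the labels. Per the study's methods, footprints were obtained with cycloheximide and RNase I. The authors trimmed adapters, collapsed UMIs and mapped reads to hg38. Tools named in the submitters' processing notes are STAR 2.6.0a, Bowtie2 and cutadapt; the annotation release is not given in the sources used here. Reads in coding sequences were counted with Ribo-seQC and compared by the authors with DESeq2, with an interaction term and likelihood ratio test for TE. The deposited base means, log2 fold changes and adjusted p-values are used here as the authors made them. Base means were taken as normalized counts over all libraries of a comparison, which the labels do not list. None of these values was recomputed, and no value per library is in the tables. Depth per library was not analysed here; the base means set the precision.

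From the deposited values the mean of each condition (equal weights assumed), its Poisson counting error, per-kb levels, medians and SDs over the subunits were computed with Python 3.11.15, numpy and pandas. The counting spread was checked on simulated data. Coding sequences and UTRs are those of the canonical GENCODE v44 transcript (5′ UTRs under 10 nt left out). Windows of 28 and 65 nt were searched exactly on both strands of hg38. All 8 subunits are described. From each other list the genes called for TE with the highest and lowest change and those called against the rest of their list are named. Others named, such as PFDN4, BBS10, PSMA7, PSMB3, PSMB6, the cofactors and the genes called for RNA or footprints, were chosen after their values were seen. The members and lists were chosen with earlier results of these data known. Alternatives were other thresholds, ribo minus RNA for TE, a robust spread, leaving out each subunit, other transcript lengths and a base mean above 20 or 100.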

Additional observations from a re-analysis of the deposited data

How the results depend on the processing

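No paired analysis was possible because the tables hold no value per library, and for the same reason no replicate could be left out. At an adjusted p under 0.01, 2 subunits (CCT8 and CCT2) were called for TE after IAA, and under 0.1, 7. At 0.05, 2 were called for RNA, and at 0.1, 1 for footprints. The median TE change after IAA stayed between 0.37 and 0.40 and its SD between 0.15 and 0.21 with each subunit left out in turn. With DDX3Y the median RNA change (0.06) was 0.0813 without TCP1, CCT3, CCT4 or CCT6A and 0.0424 without CCT2, CCT5, CCT7 or CCT8, and the RNA SD (0.06) was 0.0306 without CCT6A. With coding length averaged over transcripts the RNA coefficient of variation was 72.3% in the IAA table and 68.8% in the other. Among genes with base means above 100, 20.1% were called higher in TE and 15.5% lower in RNA. The median 5′ UTR averaged over transcripts was 184 nt. In the other 118 recomputed values the change stayed within the counting error or, for counts and percentages, within 1.5 times. The robust TE spread after IAA was 0.11 against an SD of 0.20. The analyses by unique windows and by coding GC content were added after seeing the data.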
